A study of Homo sapiens with 23 samples.

Results

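LIN28A and LIN28B, the microRNA let-7 regulators, were examined with 7 oncofetal genes whose transcripts let-7 is known to repress: HMGA1, HMGA2, IGF2BP1, IGF2BP2, IGF2BP3, ARID3B and TRIM71. The genes were chosen by their NCBI Gene IDs, and LIN28B was selected on its fall in resistant Kuramochi, the deepest of any gene in that line. All 9 of 9 were found among the 21658 genes of the table. Because that contrast chose the genes, the difference between resistant and parental Kuramochi is described here without a test for any of them, and so is the LIN28B level of parental Kuramochi beside the other lines.

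The data were RNA-seq values of 23 libraries from 4 human ovarian cancer cell lines, Kuramochi, OV-90, OVSAHO and EFO-21. Each line was measured as its parental form and as a form made resistant to prexasertib, an inhibitor of the checkpoint kinase CHK1, by exposure to rising concentrations over a long period. There were 3 libraries in each of the 8 groups except parental OV-90, which had 2. Each line is represented by its own single resistant derivative, so a difference found in it belongs to that derivative, and whether these derivatives were pools or clones is not given in the sources used here.

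The values were log2 expression values made comparable across libraries by quantile normalization, with a median of 6.01 in every library. The lowest 10% of the values of a library, those up to 1.70 to 1.87, are called the bottom here, and a difference between values there is not a measured fold change. The depth of the libraries is unknown. Libraries of a group correlated at 0.9524 to 0.9875 and libraries of different lines at 0.6238 to 0.8081. The lowest correlation within a group was that between the 2 parental OV-90 libraries, numbers 2 and 3. Resistant Kuramochi correlated with parental Kuramochi at 0.889 to 0.895, above its highest correlation with another line, 0.808. Of 8 ovarian carcinoma and epithelial markers, MUC16 was at the bottom in every OV-90 library and WT1 in every EFO-21 library. Resistant Kuramochi had CDH1 and MUC16 at the bottom, and the log2 of its summed marker level was 12.0 to 12.1 against 12.9 to 13.2 in parental Kuramochi. In OVSAHO that level was 12.53 to 12.59 in parental and 11.46 to 11.55 in resistant libraries. The log2 of the summed level of 8 stromal, endothelial and blood cell markers was 12.5 to 13.3 in parental and 12.1 to 12.2 in resistant OV-90, with LUM highest, and at most 9.04 in the other lines. In OVSAHO it went from 6.31 to 6.45 up to 7.53 to 7.82. The part of these markers in the values that follow was not tested.

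The let-7 family holds microRNAs that accumulate as embryonic cells differentiate and that repress growth and stem cell genes by pairing of their seed with messages. LIN28A and LIN28B are RNA-binding proteins that bind let-7 precursors and block their maturation, and let-7 in turn represses both, so each side holds down the other. Several of the remaining genes, though not all, encode foetal proteins that are silent or low in many adult tissues. Some of these return in carcinomas, high-grade ovarian tumours among them. Mature let-7 was not measured by these messenger RNA libraries.

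All 9 mature let-7 family sequences taken from RefSeq (GRCh38.p14) share one seed, bases 2 to 8, shown in capitals to make plain why a single match was searched for the whole family. They come from 12 genes.
hsa-let-7a-5p: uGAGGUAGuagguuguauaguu
hsa-let-7b-5p: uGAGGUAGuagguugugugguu
hsa-let-7c-5p: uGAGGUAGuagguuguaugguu
hsa-let-7d-5p: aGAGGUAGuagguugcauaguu
hsa-let-7e-5p: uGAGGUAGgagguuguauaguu
hsa-let-7f-5p: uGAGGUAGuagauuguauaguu
hsa-let-7g-5p: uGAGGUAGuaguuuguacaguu
hsa-let-7i-5p: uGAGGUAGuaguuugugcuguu
hsa-miR-98-5p: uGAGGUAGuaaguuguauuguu

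The reverse complement of that seed, CTACCTC, was searched on the transcript strand of 1 canonical 3′ UTR per gene, read from GRCh37. It was present in 1853 of 19060 UTRs (9.7%), and 1.14% held 2 or more matches. Each of the 9 genes held at least 1 match. TRIM71 held 6, LIN28B, HMGA2 and IGF2BP1 held 4 each, and LIN28A, HMGA1, IGF2BP2, IGF2BP3 and ARID3B held 1 each. These genes are known let-7 targets, so the presence of a match is no finding. Their UTRs are also long, between 1347 bases (HMGA1) and 6701 bases (IGF2BP1), against a median of 1068 bases. Among UTRs of 0.8 to 1.25 times the same length, the share with as many matches was 0.19% for LIN28B, 0.08% for HMGA2, 0.51% for IGF2BP1 and 0.1% for TRIM71. For the genes with 1 match it lay between 8.72% (HMGA1) and 16.5% (LIN28A), so a single match in UTRs of this length was common.

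The matches of the 2 LIN28 genes and the first match after the stop codon of each other gene follow on the transcript strand in GRCh37, 23 bases each, with the seed match in capitals. They show how the flanking bases differ while the match stays the same. An A just after the match lies opposite the first base of the microRNA and is known to strengthen repression, and it followed 2 of the 4 matches of LIN28B, 1 of 4 in HMGA2, 3 of 4 in IGF2BP1 and 4 of 6 in TRIM71.
LIN28B, chr6:105526687-105526709, plus strand: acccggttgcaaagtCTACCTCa
LIN28B, chr6:105529114-105529136, plus strand: tactgatgatagtaaCTACCTCt
LIN28B, chr6:105529296-105529318, plus strand: gtttacagcaaaaggCTACCTCa
LIN28B, chr6:105530735-105530757, plus strand: aaatgatggtgttgaCTACCTCt
LIN28A, chr1:26753839-26753861, plus strand: gcacagcctattgaaCTACCTCa
TRIM71, chr3:32933460-32933482, plus strand: aacattgcttaagtcCTACCTCa
HMGA2, chr12:66357078-66357100, plus strand: gccaacgttcgatttCTACCTCa
HMGA1, chr6:34213606-34213628, plus strand: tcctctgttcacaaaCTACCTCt
ARID3B, chr15:74890442-74890464, plus strand: tatttcaataaacctCTACCTCt
IGF2BP1, chr17:47128423-47128445, plus strand: tgtgtgcgaagtaaaCTACCTCa
IGF2BP2, chr3:185362008-185362030, minus strand: aacacacagaagaagCTACCTCa
IGF2BP3, chr7:23351414-23351436, minus strand: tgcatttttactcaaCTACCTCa

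**Figure D1:**
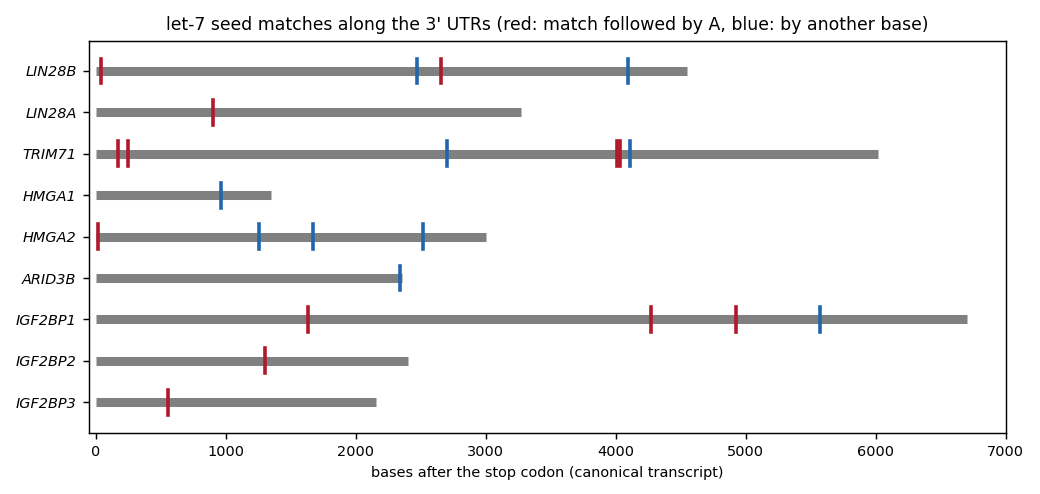
Positions of the let-7 seed match along the 3′ UTR of each of the 9 genes, in bases after the stop codon of the canonical transcript. Grey bars are the UTRs, to scale, and vertical marks are matches, red where an A follows and blue where another base does. TRIM71 carries 6 matches, LIN28B, HMGA2 and IGF2BP1 carry 4 each and the other genes carry 1.

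At baseline the 4 parental lines each expressed a different set of these genes. LIN28B was high in Kuramochi and OV-90, IGF2BP1 stood well above the bottom in OV-90 alone, TRIM71 did so in OVSAHO alone, and LIN28A was above the bottom in all libraries of OV-90 and EFO-21. HMGA1, HMGA2, IGF2BP2, IGF2BP3 and ARID3B were above the bottom in all 23 libraries. Pairs of parental lines were compared with limma over all genes, and a difference passed the test at an adjusted p under 0.05 and at least 2-fold. The LIN28B comparisons with Kuramochi were left out. Of the 51 remaining comparisons 27 passed. By pair, 6 of 8 genes passed between Kuramochi and OV-90 (47% of all genes did), 3 of 8 between Kuramochi and OVSAHO (37.6%) and 1 of 8 between Kuramochi and EFO-21 (41.3%). Between OV-90 and OVSAHO 4 of 9 passed (48.1%), between OV-90 and EFO-21 7 of 9 (50.2%), and between OVSAHO and EFO-21 6 of 9 (44.2%). Differences of this kind between lines were thus common across the table.

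**Figure D2:**
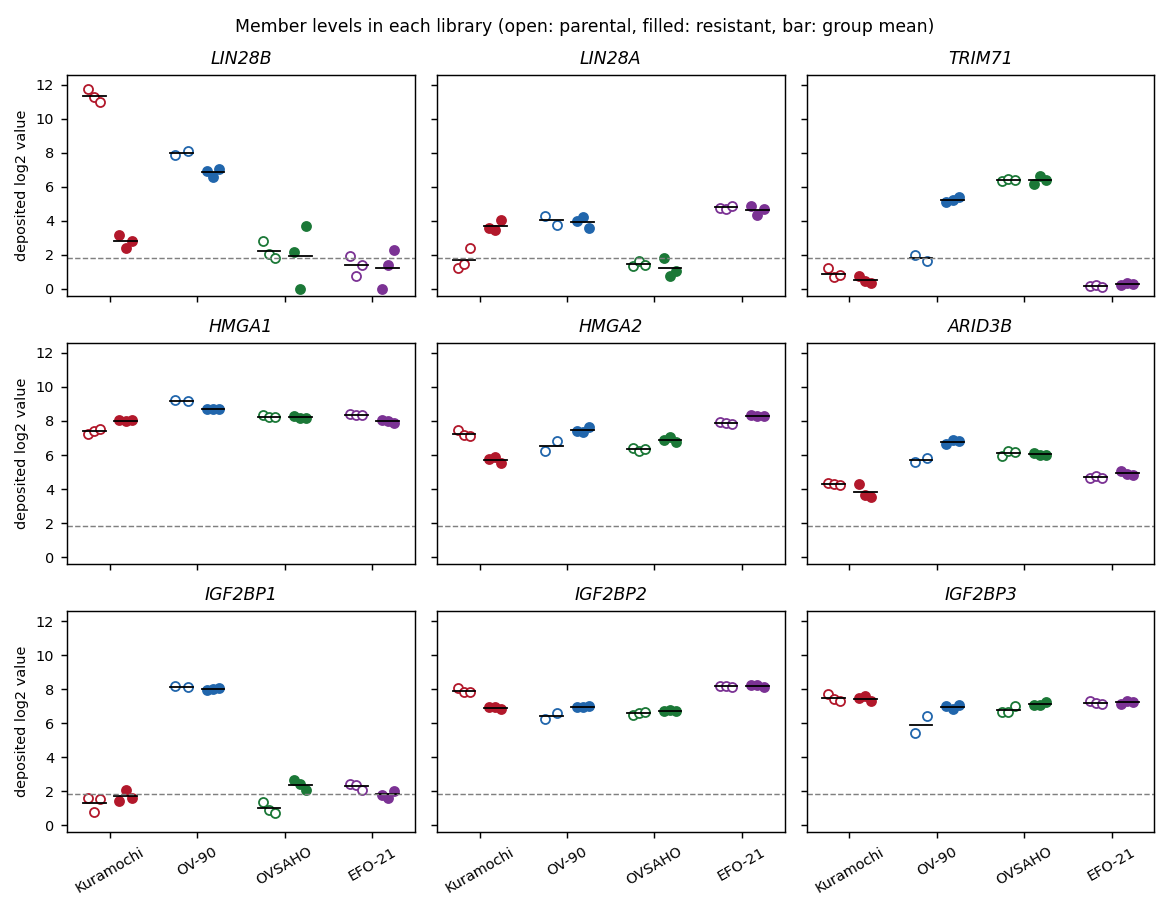
Deposited log2 value of each gene in each library, by cell line, with open circles for parental and filled circles for resistant libraries, a black bar at the group mean and a dashed line at the 10th percentile of the libraries. LIN28B fell from above 11 to about 3 in Kuramochi, TRIM71 left the bottom in resistant OV-90, and IGF2BP1 was high in OV-90 alone.

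LIN28B (chr6:105384491-105531207, plus strand) had log2 values of 11.76, 11.25 and 11.01 in the 3 parental Kuramochi libraries, at the 96.7th to 97.9th percentile of these libraries. In parental OV-90 it had 7.89 and 8.08. The values were 2.79, 2.07 and 1.79 in parental OVSAHO and 1.95, 0.78 and 1.41 in parental EFO-21, at or close to the bottom. OV-90 exceeded OVSAHO by 5.77 ± 0.38 (SE) in log2 (adjusted p = 3.88e-07, limma) and EFO-21 by 6.60 ± 0.38 (adjusted p = 1.59e-07). The order of means was thus Kuramochi, OV-90, OVSAHO and EFO-21, and the last 2 did not pass the test (adjusted p = 0.0475 at 0.84 in log2, with values of both at the bottom). The LIN28B value rests on 1 exon feature, while the values of the other genes rest on 3 to 50. The start of LIN28B also overlaps the antisense gene LIN28B-AS1, and strand use in counting is not given in the sources used here.

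LIN28A (chr1:26737308-26756219) is the embryonic paralogue, and it was weak throughout. Parental EFO-21 had 4.78, 4.71 and 4.88 and parental OV-90 had 4.27 and 3.78, a difference of 0.77 ± 0.34 in log2 that did not pass the test (adjusted p = 0.0663). Parental Kuramochi had 1.25, 1.44 and 2.38 and parental OVSAHO 1.37, 1.64 and 1.42, mostly at the bottom. EFO-21 exceeded both, and the difference of Kuramochi minus EFO-21 was -3.10 ± 0.30 (adjusted p = 8.78e-06). The 2 LIN28 genes were therefore not high in the same lines: EFO-21 had LIN28A without LIN28B, Kuramochi the reverse, OV-90 had both and OVSAHO neither.

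TRIM71 (chr3:32859489-32939316), an RNA-binding protein of the early embryo, had 6.34, 6.48 and 6.41 in parental OVSAHO. It had 1.98 and 1.61 in parental OV-90, 1.20, 0.71 and 0.79 in Kuramochi, and 0.16, 0.20 and 0.13 in EFO-21. OVSAHO stood above OV-90 in every library, and OV-90 minus OVSAHO was -4.61 ± 0.25 (adjusted p = 1.13e-07). The values of the other lines lay at or near the bottom, so the order among them is not a measure of expression.

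IGF2BP1 (chr17:47074747-47133507) belongs with IGF2BP2 and IGF2BP3 to a family that binds and stabilizes messages, MYC and IGF2 among them. It had 8.16 and 8.13 in parental OV-90 and no more than 2.40 in any library of the other 3 parental lines. OV-90 exceeded EFO-21, the next in order, by 5.86 ± 0.31 (adjusted p = 1.01e-07). IGF2BP2 (chr3:185360918-185542830) was highest in EFO-21, 8.16 ± 0.04 (SD, n = 3), and Kuramochi, 7.90 ± 0.13 (SD, n = 3), which did not pass the test against each other (adjusted p = 0.0519). OV-90 had 6.44 ± 0.25 (SD, n = 2) and OVSAHO 6.57 ± 0.08 (SD, n = 3), and each was below both of the former. IGF2BP3 (chr7:23349828-23510110) was lowest in OV-90, where the 2 libraries differed most, 5.44 and 6.40. The other lines had means of 6.78 (OVSAHO), 7.21 (EFO-21) and 7.49 (Kuramochi), and no pair of these 3 passed the test.

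HMGA1 (chr6:34204650-34214008) and HMGA2 (chr12:66218240-66360071) encode architectural proteins that bend AT-rich DNA. Parental HMGA1 was 9.18 ± 0.04 (SD, n = 2) in OV-90, 8.37 ± 0.04 in EFO-21, 8.26 ± 0.06 in OVSAHO and 7.40 ± 0.15 in Kuramochi (SD, n = 3 each). OV-90 against Kuramochi was the only pair that passed, with Kuramochi minus OV-90 at -1.78 ± 0.09 (adjusted p = 7.37e-08). The annotation lists 8 HMGA1 pseudogenes, so its reads may be split. Parental HMGA2 was highest in EFO-21, 7.88 ± 0.07, followed by Kuramochi with 7.25 ± 0.18, OV-90 with 6.51 ± 0.41 and OVSAHO with 6.35 ± 0.09. EFO-21 passed against OV-90 (OV-90 minus EFO-21 -1.36 ± 0.16, adjusted p = 3.82e-05) and OVSAHO (-1.52 ± 0.15, adjusted p = 7.23e-06), and OV-90 and OVSAHO did not pass against each other (adjusted p = 0.419). ARID3B (chr15:74833547-74890472), a DNA-binding protein of the ARID family, was 6.12 ± 0.15 in OVSAHO, 5.72 ± 0.18 in OV-90, 4.68 ± 0.07 in EFO-21 and 4.30 ± 0.06 in Kuramochi. Both of the former passed against both of the latter.

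In resistant Kuramochi, LIN28B fell to 3.18, 2.40 and 2.83 from 11.76, 11.25 and 11.01. The difference was -8.54 ± 0.26 (SE) in log2, and without parental library 4, whose value was the highest, the parental values were still above 11. The resistant libraries lay at the 13.1th to 18.1th percentile, just above the bottom. No gene of the table had a larger fall in this line, and the next among well expressed genes were RIPPLY1 with -8.11 and EMX2 with -8.10. LIN28A went the other way, from 1.25, 1.44 and 2.38 to 3.56, 3.49 and 4.04. The LIN28A values of resistant Kuramochi were thus close to those of OV-90 and below those of parental EFO-21.

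Among the let-7 targets in Kuramochi, HMGA2 went from 7.45, 7.19 and 7.11 to 5.75, 5.87 and 5.55, a difference of -1.53 ± 0.14. IGF2BP2 went from 8.05, 7.84 and 7.81 to 6.96, 6.97 and 6.82, a difference of -0.98 ± 0.10. HMGA1 went from 7.25, 7.42 and 7.54 to 8.04, 7.99 and 8.04, a difference of 0.62 ± 0.09. The groups of these 3 genes did not overlap. IGF2BP3 differed by -0.04 ± 0.13 and ARID3B by -0.46 ± 0.25, and their groups overlapped. IGF2BP1 and TRIM71 were at the bottom before and after, apart from 1 IGF2BP1 library just above it. Over all genes, 11.8% of genes passed the thresholds as higher and 10.6% as lower in this contrast. With no fold threshold 10158 of 21658 genes had an adjusted p under 0.05 by limma there. The share of all genes whose groups did not overlap was not counted.

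In OV-90, the other line with LIN28B well above the bottom, the gene went from 7.89 and 8.08 in parental libraries to 6.95, 6.58 and 7.03 in resistant ones. Every resistant library was below both parental ones, and LIN28B fell by 1.13 ± 0.17 in log2 (adjusted p = 0.0174, limma), a 2.19-fold lower value. The call was lost when any of the 3 resistant libraries was left out (adjusted p = 0.0552 to 0.0786) and when all 23 libraries shared one estimate of the spread (adjusted p = 0.205). In OVSAHO and EFO-21, where LIN28B was at or close to the bottom, the differences were -0.26 ± 0.91 and -0.14 ± 0.62 (adjusted p = 0.862 and 0.871). The difference of the LIN28B change between OV-90 and these lines did not pass the test (adjusted p = 0.515 and 0.432), with values at the bottom in the second line of each comparison.

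TRIM71 rose in resistant OV-90 from 1.98 and 1.61 to 5.09, 5.21 and 5.42, by 3.44 ± 0.23 in log2 (adjusted p = 0.00489). The parental values were at or close to the bottom, so the size of the rise is uncertain, but the resistant values were at the 37.3th to 41.6th percentile. The rise passed the test with any 1 library left out. TRIM71 in OVSAHO, the line in which it was high, differed by -0.01 ± 0.13 (adjusted p = 0.953), and the change in OV-90 exceeded that in OVSAHO by 3.46 ± 0.28 (adjusted p = 7.80e-08). Resistant OV-90 thus had TRIM71 in the presence of LIN28B, while OVSAHO had it without.

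ARID3B also rose in resistant OV-90, from 5.60 and 5.85 to 6.67, 6.87 and 6.82, by 1.07 ± 0.14 (adjusted p = 0.0142). This call was lost without parental library 2, where the change was 0.94, and without any of the resistant libraries (adjusted p = 0.0711 to 0.0805). HMGA2 went from 6.22 and 6.80 to 7.44, 7.36 and 7.65, a 1.97-fold difference just under the 2-fold threshold (0.98 ± 0.21 in log2, adjusted p = 0.0290). IGF2BP3 went from 5.44 and 6.40 to 7.03, 6.84 and 7.05, 1.05 ± 0.31 in log2, and did not pass (adjusted p = 0.054). It passed without parental library 3 (1.53 in log2, adjusted p = 0.00422) and when all 23 libraries were fitted together (adjusted p = 0.000191). In all, 2 of 9 genes rose and 1 fell in OV-90, against 9.50% and 6.56% of all genes, and the median change of the 9 was 0.53 against -0.06 over all genes. Changes in this line also moved with 3′ UTR length, as given below. The median was 0.50 for well expressed genes with UTRs of 2525 bases and more.

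In resistant OVSAHO 1 of 9 genes rose and 0 fell by limma, against 3.93% and 3.83% of all genes. At an unadjusted p under 0.05 with no fold threshold 4 were higher and 0 lower, while 9589 of all 21658 genes passed in either direction. The gene that rose was IGF2BP1, which went from 1.34, 0.91 and 0.75 to 2.64, 2.44 and 2.10 (1.39 ± 0.23, adjusted p = 0.00708). All its parental values were at the bottom and the resistant ones barely above it, so this is not a measured fold. In the same line 4 of 8 ovarian carcinoma and epithelial markers fell, among them MUC16 by 4.59 (adjusted p = 3.39e-05), EPCAM by 3.01 (adjusted p = 1.23e-05) and CDH1 by 1.67 (adjusted p = 8.97e-05), and of 8 stromal, endothelial and blood cell markers LUM and DCN rose, by 4.73 and 4.22 (adjusted p = 0.000954 and 6.17e-05), and COL1A1, COL1A2 and PTPRC fell. PECAM1, COL1A2 and PTPRC were at the bottom in every resistant OVSAHO library. The part of these markers in the IGF2BP1 value was not tested. In EFO-21 0 of 9 genes rose and 0 fell by limma, against 7.11% and 7.15% of all genes. At an unadjusted p under 0.05 with no fold threshold 1 was higher and 2 lower, while 12039 of all 21658 genes passed in either direction. Without the fold threshold, HMGA2 and HMGA1 had an adjusted p under 0.05 in that line.

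**Figure D3:**
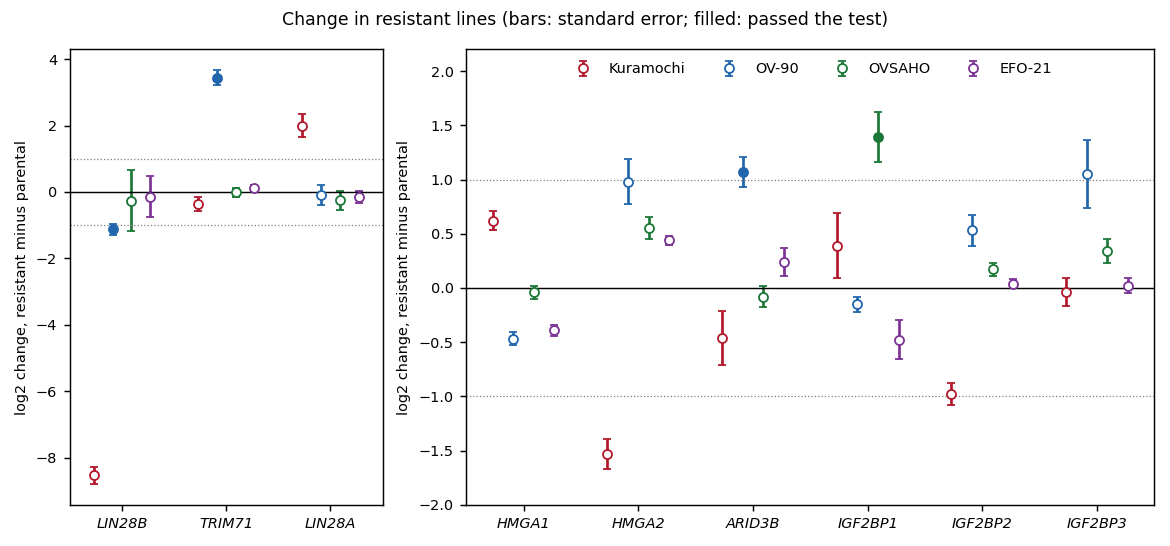
Log2 change (resistant minus parental) of each gene in each line, with standard errors from limma, on separate scales for LIN28B, TRIM71 and LIN28A and for the other 6 genes. Filled points passed the test, Kuramochi points are open because no test applies, and dotted lines mark 2-fold. LIN28B in Kuramochi lies at -8.54, and HMGA2 lies above 0 in 3 lines and below 0 in Kuramochi.

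HMGA2 was higher in the resistant libraries of the 3 tested lines and lower in Kuramochi. It went from 6.44, 6.26 and 6.36 to 6.89, 7.08 and 6.75 in OVSAHO (0.55 ± 0.10, adjusted p = 0.0101) and from 7.94, 7.88 and 7.81 to 8.34, 8.29 and 8.30 in EFO-21 (0.44 ± 0.04, adjusted p = 0.000636). These were 1.47-fold and 1.35-fold, under the 2-fold threshold. The direction held under all alternatives tried, but leaving out 1 library cannot turn the sign of groups that do not overlap, so this adds no support. The groups overlapped in none of the 4 lines, and the share of all genes of which this holds was not counted. HMGA1 was lower in resistant OV-90, 8.69 to 8.72 against 9.16 and 9.21 (-0.47 ± 0.06, adjusted p = 0.0131), and in resistant EFO-21, 7.91 to 8.04 against 8.34 to 8.41 (-0.39 ± 0.05, adjusted p = 0.00129). It differed by -0.04 ± 0.06 in OVSAHO (adjusted p = 0.68). So in Kuramochi, OV-90 and EFO-21 the 2 HMGA genes differed in opposite directions. An adjusted p under 0.05 with no fold threshold was reached by 6 of the 9 genes in OV-90, 2 in OVSAHO and 2 in EFO-21, against 36%, 33.3% and 48.4% of all genes.

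Between the tested lines, the change of a gene was compared directly in one fit of all 23 libraries. Of the 9 genes, 3 passed for OV-90 against OVSAHO (17.1% of all genes), 2 for OV-90 against EFO-21 (24.9%) and 1 for OVSAHO against EFO-21 (15.7%). ARID3B rose more in OV-90 than in OVSAHO, by 1.15 ± 0.23 (adjusted p = 0.00102), and IGF2BP3 changed more in OV-90 than in EFO-21, by 1.03 ± 0.26 (adjusted p = 0.00314). Without parental OV-90 library 2 the IGF2BP3 difference was 0.55 (adjusted p = 0.0327), and it was under 2-fold also without OV-90 library 13 or 15 or EFO-21 library 10 or 22. The HMGA2 changes did not differ by 2-fold between any of these lines, with differences of 0.42 ± 0.20, 0.54 ± 0.20 and 0.12 ± 0.18.

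The length of the 3′ UTR moved with the change in OV-90. Genes with a mean above the median of all genes were placed in 4 classes of equal size by UTR length, a grouping chosen after the data were seen. In OV-90 the median log2 change went from -0.41 in the class with the shortest UTRs (up to 478 bases) through -0.02 and 0.35 to 0.50 in the class with the longest (2525 bases and more). Without parental library 2 these ends were -0.27 and 0.35, and without library 3 they were -0.55 and 0.63. The ends were -0.14 and 0.14 in OVSAHO, -0.05 and 0.05 in EFO-21 and -0.03 and -0.04 in Kuramochi. TRIM71 and ARID3B, which rose in resistant OV-90, have UTRs of 6013 and 2357 bases. HMGA2 (2999 bases) changed by 0.98 there, IGF2BP3 (2153 bases) by 1.05, IGF2BP2 (2401 bases) by 0.53 and HMGA1 (1347 bases) by -0.47, none past both thresholds. IGF2BP1, with the longest UTR of the 9 (6701 bases), changed by -0.15 and LIN28A (3270 bases) by -0.09, and LIN28B (4549 bases) fell. The part of UTR length in these values was not tested.

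Genes outside the 9 were also grouped by their number of let-7 matches, as a description. In Kuramochi the median change was 0.01 for 14045 genes with no match, -0.05 for 1447 genes with 1, -0.03 for 164 genes with 2 and -0.46 for 30 genes with 3 or more. Of these 30 genes, 10 passed the thresholds as lower (33.3%) and 1 as higher (3.3%). Of genes with no match 10.5% were lower and 12.7% higher, and of genes with 1 match 11.2% and 12.5%. The median of the 30 genes was -0.25 without resistant library 18 and -0.17 for the 13 of them above the median level. In OV-90 the medians rose with the number of matches, from -0.02 to 0.26, 0.29 and 0.53, but UTR length rose as well, from a median of 1072 bases with no match to 7012 bases with 3 or more. Within the class of longest UTRs the OV-90 medians were 0.52 for 1707 genes with no match, 0.46 for 391 genes with 1 and 0.43 for 87 genes with 2 or more. In that class the Kuramochi medians were -0.03, -0.09 and -0.05. Within the class below it (1205 to 2524 bases) Kuramochi had 0.04 for 1955 genes with no match and -0.11 for 211 genes with 1. Grouped by matches alone over all genes with a UTR, the medians were 0.01, 0.07, 0.10 and 0.05 in OVSAHO and 0.01, 0.02, 0.06 and 0.07 in EFO-21. Within the class of longest UTRs they were 0.14, 0.15 and 0.11 in OVSAHO and 0.05, 0.03 and 0.04 in EFO-21.

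**Figure D4:**
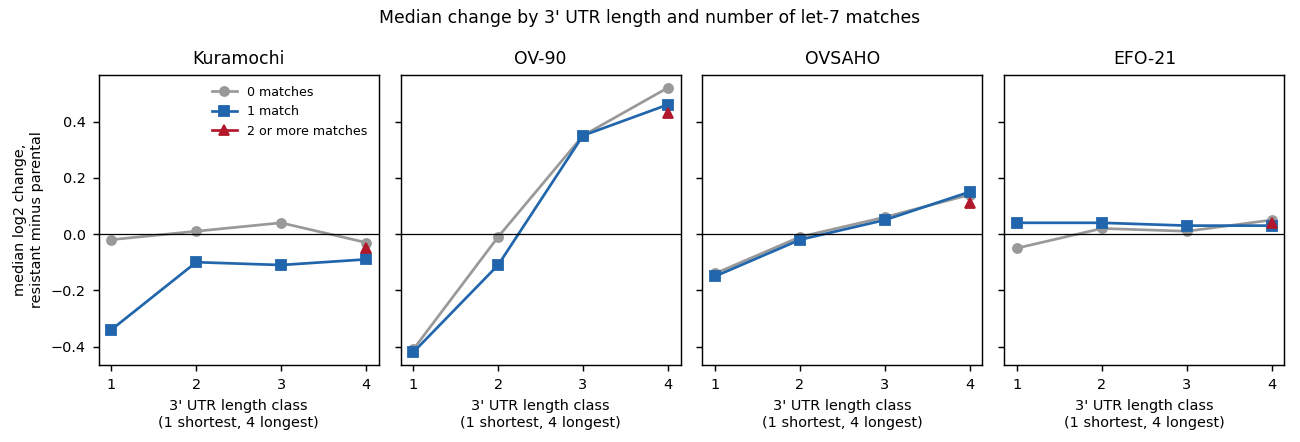
Median log2 change (resistant minus parental) of genes outside the 9, by class of 3′ UTR length (1 shortest, 4 longest) and by number of let-7 seed matches, in each line. Groups under 40 genes are not drawn. In OV-90 the medians climb with length for genes with no match, from -0.41 to 0.52, and for genes with 1 match. Genes with 2 or more matches are drawn in the longest class only. In Kuramochi genes with 1 match lie below genes with none.

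Other let-7 targets from a list of known ones, 38 measured of 39, moved in both directions. This list and those that follow were written with earlier results of these data known, so their counts are descriptions. In OV-90 13 rose and 1 fell (9.50% and 6.56% of all genes did), with a median of 0.85 against -0.06 over all genes. In OVSAHO 5 rose and 1 fell (3.93% and 3.83% of all genes), with a median of 0.25, and in EFO-21 1 rose and 3 fell (7.11% and 7.15% of all genes), with a median of 0.17. In Kuramochi 6 were higher and 8 lower past the same thresholds (11.8% and 10.6% of all genes), with a median of -0.21. All genes are not a like background in OV-90, where the change moved with UTR length. Of genes outside the 9 with 1 or 2 let-7 matches, 16.2% and 17.7% rose in OV-90 and 3.7% and 1.8% fell. The part of UTR length in the OV-90 counts was not tested. MYCN, the neuroblastoma proto-oncogene, rose in OVSAHO by 1.90 (adjusted p = 0.00217) and in EFO-21 by 2.08 (adjusted p = 0.000264), and its Kuramochi mean went from 4.80 to 2.54. CDK6, a G1 cyclin-dependent kinase, rose in OV-90 by 1.32 (adjusted p = 0.0215) and in OVSAHO by 1.23 (adjusted p = 0.00519). In EFO-21 the CDK6 mean fell from 5.87 to 1.70 (-4.17, adjusted p = 2.43e-05), down to the bottom. THBS1, which encodes the matrix protein thrombospondin 1, rose in OV-90 by 1.63 (adjusted p = 0.0254) and in OVSAHO by 1.30 (adjusted p = 0.00132), and went from 8.32 to 11.08 in Kuramochi. FIGNL2 rose in OV-90 by 2.06 (adjusted p = 0.00695) and went from 5.73 to 3.55 in Kuramochi. HIC2 and PLAGL2, both transcription factors, rose in OV-90 by 1.03 and 1.16 (adjusted p = 0.0272 and 0.0255) and differed by -1.34 and -1.01 in Kuramochi. E2F5, a cell cycle transcription factor, had the largest fall of the list in Kuramochi, from 7.79 to 3.19.

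Of the microRNA processing and let-7 turnover genes, all 18 were measured, and few passed the test. DICER1, which cuts precursors to mature microRNAs, rose in OV-90 by 1.51 ± 0.23 (adjusted p = 0.0177), and AGO1, an Argonaute that carries them, by 1.24 (adjusted p = 0.0259). TARBP2, the partner of DICER1, fell in EFO-21 by 1.55 (adjusted p = 8.26e-05). By limma 2 of 18 rose and 0 fell in OV-90, against 9.5% and 6.56% of all genes. In EFO-21 0 rose and 1 fell (7.11% and 7.15% of all genes). In OVSAHO 0 of 18 rose and 0 fell (3.93% and 3.83% of all genes). In Kuramochi 0 were higher and 0 lower past the thresholds (11.8% and 10.6% of all genes). At an unadjusted p under 0.05 with no fold threshold 8 were higher and 3 lower in OVSAHO, while 9589 of all 21658 genes passed. TUT4, the uridylyltransferase that LIN28A recruits to let-7 precursors, differed by 0.94 ± 0.16 in OV-90 and -0.44 ± 0.12 in Kuramochi. DIS3L2, the nuclease that degrades the tailed precursors, differed by -0.51 ± 0.09 and -0.52 ± 0.11. In OVSAHO and EFO-21 TUT4 differed by 0.51 ± 0.08 and -0.12 ± 0.06, and DIS3L2 by -0.29 ± 0.07 and 0.32 ± 0.09. Neither gene had the same direction in all lines, and no difference of either reached 2-fold.

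Host transcripts of let-7 genes were measured for 6 of 8 listed. MIRLET7BHG, which spans MIRLET7A3 and MIRLET7B, went from a mean of 3.52 ± 0.67 to 5.63 ± 0.15 (SD, n = 3 each) in Kuramochi, a difference of 2.12 ± 0.35. It fell in OVSAHO by 1.06 ± 0.18 (adjusted p = 0.00734) and differed by -1.74 ± 0.55 in OV-90 (adjusted p = 0.063), where resistant values were at the bottom. MIR99AHG, which spans MIRLET7C, went from 5.57 ± 0.12 to 2.85 ± 0.39 in Kuramochi, a difference of -2.71 ± 0.24. HUWE1, the ubiquitin ligase gene that spans MIR98 and MIRLET7F2, rose in OV-90 by 1.35 ± 0.34 (adjusted p = 0.0402). A host level is not a level of mature let-7.

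Of 11 measured other oncofetal genes, 9 were lower and 1 higher past the thresholds in Kuramochi, where 10.6% of all genes were lower and 11.8% higher. Their median was -1.89 against -0.02 over all genes. This list was written with earlier results of these data known, so its counts and median are a description and no evidence of a shared fall. IGF2, the foetal growth factor whose message the IGF2BP proteins bind, went from 10.56 to 3.42 in that line. IGF2 rose in OV-90 from 8.17 to 11.34 (3.17, adjusted p = 0.00969) and in OVSAHO from 2.33 to 3.61 (1.28, adjusted p = 0.00865). H19, the RNA made from the neighbouring imprinted locus, fell in OV-90 from 8.53 to 5.51 (-3.02, adjusted p = 0.00287). SOX11 went from 9.97 to 4.05 in Kuramochi, fell in OVSAHO by 2.21 (adjusted p = 0.00127) and rose in EFO-21 by 2.77 (adjusted p = 0.0098). The EFO-21 means of SOX11 were 0.14 in parental libraries, at the bottom, and 2.91 in resistant ones, so that rise is not a measured fold. SALL4, a stem cell transcription factor, was the 1 higher gene in Kuramochi, 2.12 to 4.41. Of 6 measured pluripotency and germ cell genes, KIT and TFAP2C were higher in Kuramochi (4.61 to 8.61 and 4.12 to 7.63) and SOX2 and SOX17 lower. In OVSAHO SOX2 fell by 1.22 (adjusted p = 0.00308), while in OV-90 and EFO-21 0 of 6 passed the test by limma. At an unadjusted p under 0.05 with no fold threshold 3 and 2 did, while 11001 and 12039 of all 21658 genes did.

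LIN28B was selected on its fall in Kuramochi, the deepest of any gene, so no measured gene beside it on chromosome 6 could fall by more there. HACE1, the nearest on one side, went from 5.66 to 5.38 (-0.28 ± 0.15), and POPDC1, the nearest on the other, from 4.34 to 4.08 (-0.25 ± 0.31). Of the 5 measured genes on each side, PREP and ASCC3, the best expressed, differed by -0.87 ± 0.08 and -0.80 ± 0.20. POPDC3 differed by -1.07 ± 0.17 and the pseudogene RPL35P3 by -2.09 ± 0.50, while SIM1 went from 5.53 to 6.56. In OV-90 the neighbours passed in both directions, with GRIK2, HACE1 and ASCC3 higher (3.51, 1.06 and 1.21, adjusted p = 0.00982, 0.0246 and 0.0286) and POPDC1-AS1 and POPDC3 lower (-1.63 and -1.27, adjusted p = 0.016 and 0.0051). The parental GRIK2 mean was 0.65, at the bottom.

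**Figure D5:**
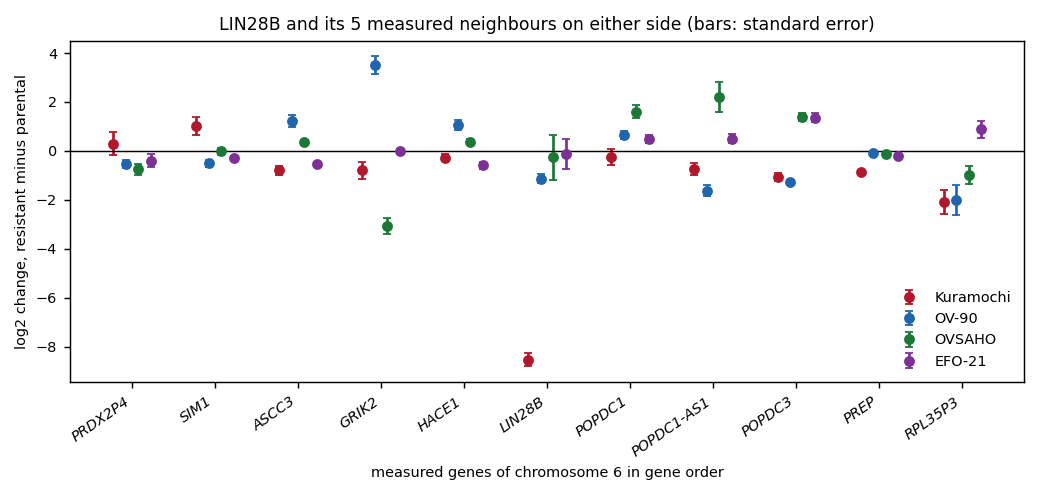
Log2 change (resistant minus parental, with standard errors) of LIN28B and the 5 measured genes on either side in gene order on chromosome 6, in the 4 lines. LIN28B lies at -8.54 in Kuramochi, the contrast on which it was selected, and its 10 neighbours in that line lie between -2.09 and 1.02.

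Genes with a pattern like that of 4 of the members were sought over the 8 group means, among the 9011 genes whose means span at least 3 in log2. These correlations are descriptions over 8 points from 4 lines, dominated by differences between lines. For LIN28B the closest were SAP25 (Pearson r = 0.992), PYGM (0.980), CAGE1 (0.977), HIPK4 (0.965) and LINC01361 (0.954). SAP25 went from 8.49 to 4.46 in Kuramochi and had 7.41 in parental OV-90. For IGF2BP1 they were SOX21 (0.993), ZFPM1 (0.993), SIGLEC11 (0.992), FUT2 (0.991) and APOC1P1 (0.991), all highest in OV-90. For HMGA2 they were SNX19P3 (0.976), LOC101929749 (0.956), SOX6 (0.951), MYCNOS (0.949) and FSIP2 (0.948). For IGF2BP3 the closest was NCBI Gene ID 643314 (0.990), and NEK7 (0.962), BBX (0.956) and LOC101928491 (0.951) were among the next.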

How the data were processed

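Total RNA of 23 cell line cultures was made into stranded, poly(A)-selected libraries. Reads were aligned by the authors with GSNP, as spelled in the methods, to GRCh37 (hg19). They left out exons with few reads, derived 1 value per gene and quantile normalized the libraries. The deposited values are log2 expression values, used here without a pseudocount or filter. Exon features behind each value are counted in the table. No counts were used, so depth is unknown. Columns name the line and resistance but no replicate number, and 0 columns belonged to other samples. Symbols were matched by NCBI Gene ID to a RefSeq table for 20745 of 21658 genes. Comparisons used limma 3.58.1 in R 4.3.3 (lmFit, eBayes with a mean-variance trend, two-sided, Benjamini-Hochberg adjustment over all genes), after the code was tested on simulated data. Fits used the 2 groups of a line, the 4 parental groups (pairs of lines) or all 8 groups (differences of change). The exact permutation test cannot go below 0.1 with these group sizes and was not used.

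The members and lists were chosen with earlier results of these data known. Besides the 9 members, genes named are those of each list called in 2 or more lines, the 2 with the largest change per line among well expressed called genes, the 5 measured neighbours of LIN28B on each side and the 5 genes most like LIN28B, HMGA2, IGF2BP1 and IGF2BP3. Not all of these are printed, and TUT4, DIS3L2, MIR99AHG, SOX17, RIPPLY1 and EMX2, outside the rule, were added after their values were seen. Alternatives are given below.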

Additional observations from a re-analysis of the deposited data

Results flagged for a closer look

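The change with resistance differed between lines for 4 of the members, tested as a difference of differences with limma over all genes. TRIM71 changed by 3.46 more in OV-90 than in OVSAHO and by 3.32 more in OV-90 than in EFO-21 (adjusted p = 7.80e-08 and 6.73e-08), with all 3 resistant OV-90 libraries above both parental ones. ARID3B changed by 1.15 more in OV-90 than in OVSAHO (adjusted p = 0.00102). IGF2BP3 changed by 1.03 more in OV-90 than in EFO-21 (adjusted p = 0.00314), with parental OV-90 libraries 2 and 3 at 5.44 and 6.40. That difference was 0.55 without library 2, and it was just under 2-fold without OV-90 library 13 or 15 or EFO-21 library 10 or 22. IGF2BP1 differed by -1.55 between OV-90 and OVSAHO (adjusted p = 0.00292) and by 1.87 between OVSAHO and EFO-21 (adjusted p = 0.000317), with its OVSAHO values at or just above the bottom. Groups of 2 or 3 libraries are too small for a test of single libraries that stand apart.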

How the results depend on the processing

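No paired analysis was possible because the columns carry no replicate number. The number of members called in OV-90 was 3, and between 1 and 5 with 1 library left out. Leaving out a resistant library left TRIM71 as the 1 called member, and leaving out parental library 3 added HMGA2 and IGF2BP3. With an adjusted p alone and no fold threshold the counts were 6 of 9 in OV-90, 2 in OVSAHO and 2 in EFO-21. Of all genes, 36%, 33.3% and 48.4% passed there. Over pairs of lines 42 of 51 comparisons passed, against 13536 to 15564 of 21658 genes by pair. For differences of change 13 of 27 passed, against 7024 to 10331 of 21658 genes. No count of members is given for Kuramochi, whose contrast chose the genes. The filter on weakly expressed genes dropped LIN28A, IGF2BP1 and TRIM71, and the counts were then 0 in OVSAHO, 15 over pairs of lines and 2 for differences of change. In the 3 tested lines 287 of 306 alternative values of single members kept their call or stayed uncalled, 8 lost a call, 11 gained one and 0 reversed. Most stayed uncalled, since only ARID3B, TRIM71 and LIN28B in OV-90 and IGF2BP1 in OVSAHO were called at first. The 8 losses all fell on ARID3B and LIN28B in OV-90. Of 217 uncalled values 12 took another sign. The call of IGF2BP3 between OV-90 and EFO-21 was lost by recentring the libraries (0.99) and by leaving out OV-90 library 2, 13 or 15 or EFO-21 library 10 or 22 (0.55 without library 2, and just under 2-fold without each of the others). Unknown depth and values at the bottom limit LIN28B in OVSAHO and EFO-21, IGF2BP1 outside OV-90 and TRIM71 in Kuramochi and EFO-21.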
